A study of Mus musculus with 9 samples.

Results

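Recombinant serglycin (rSRGN) was added to hypoxic cultures of primary neonatal mouse ventricular myocytes, and the 3 libraries that received it were compared with the 3 hypoxia libraries that did not. These 6 libraries, chosen by the treatment in their labels, are among the 9 of the series. The cells were wild-type, from 1-day-old C57BL/6J pups, and grew in DMEM with 10% FBS. Before hypoxia, both groups were moved to DMEM lacking serum and glucose, and stayed 6 h in a closed AnaeroPack chamber, one of the groups with rSRGN in the medium. The 3 control libraries came from normoxic cells that kept the complete medium, so for the control group oxygen and medium differ together from the 6 libraries compared, and control levels are given here for orientation. The labels do not give the dose, species or tag of the protein, nor a protein or vehicle control, so serglycin and other material added with it cannot be told apart. They also do not say whether replicates were separate cultures or litters, and the p-values measure the spread between these libraries, which may be technical.

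Serglycin is the core protein of a proteoglycan that carries sulphated glycosaminoglycan chains. Blood and endothelial cells store it in granules and secrete it, and outside the cell it is bound by CD44, a receptor that also binds hyaluronan. The ventricular myocyte is defined by its contractile programme, which comprises the sarcomere proteins, the calcium pump and release channel of the sarcoplasmic reticulum, ion channels, and transcription factors such as Nkx2-5. Immediate early genes are transcribed within minutes of a signal, without new protein synthesis, and many of their products are transcription factors or inhibitors of the kinase that induced them.

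Each library held between 16583985 and 20826701 counted fragments in the 6 hypoxic libraries and between 21669017 and 22781557 in the control libraries. Mitochondrially encoded RNA took 5.28% to 5.77% of the counts in hypoxia and 4.82% to 5.64% in hypoxia + rSRGN. The labelled cell type was checked by the sarcomere list, all levels being given in CPM scaled by TMM. The summed level of that list was 69590 to 83510 CPM in control, 8097 to 10960 in hypoxia and 13430 to 14250 in hypoxia + rSRGN. The fibroblast list summed to 12720 to 14540 CPM in control, 27810 to 30790 in hypoxia and 29750 to 30630 in hypoxia + rSRGN, so fibroblast RNA was present in every library. In bulk RNA, fewer cells of a type and less RNA per cell cannot be told apart. The share of myocytes among the cells was not measured.

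Of 16762 genes tested, 525 (3.13%) differed between hypoxia + rSRGN and hypoxia by 1.5-fold or more at an adjusted p under 0.05, in the quasi-likelihood test of edgeR adjusted by Benjamini-Hochberg. Of these, 381 genes (2.27%) were higher with rSRGN and 144 (0.859%) were lower. Without the fold limit 2790 genes passed, 1766 of them higher (10.5%) and 1024 lower (6.11%), and at a limit of 2-fold 108 passed, 69 higher and 39 lower, so most of the differences were small. All 3 libraries with rSRGN lay above all 3 hypoxia libraries for 2770 genes (16.5%) and below them for 2590 genes (15.5%). The median log2 fold change of all genes was -0.03. How many of the called genes were higher depended on the scaling: 72.6% with TMM, 80.7% with RLE scaling (442 higher, 106 lower) and 66.9% by library size alone (347 and 172). In DESeq2, where the test and the genes tested (13057) differ as well, it was 84.9% (428 and 76). The hypoxia library of replicate 3 carried much of the difference, since without it 321 genes were called, 201 higher and 120 lower. Without hypoxia + rSRGN replicate 2, 354 were called, 284 higher and 70 lower.

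**Figure D1:**
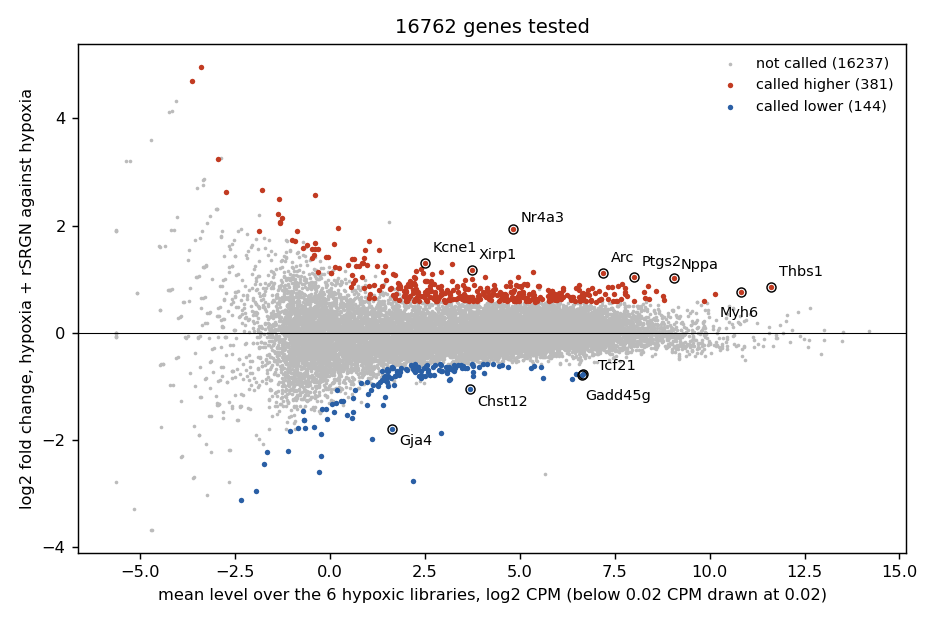
Log2 fold change of each gene tested, hypoxia + rSRGN against hypoxia, against its mean level over the 6 hypoxic libraries in log2 CPM. Red points are the 381 genes called higher, blue points the 144 called lower, and grey points the genes not called; 12 named genes are circled, from Nr4a3 at 1.94 to Gja4 at -1.79.

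Genes of the contractile apparatus were the group with the most calls. In the sarcomere list 27 of 42 members tested rose and none fell, with a median log2 fold change of 0.65 against -0.03 over all genes, and 33 of the 42 had all rSRGN libraries above all hypoxia libraries. Without the fold limit 33 passed as higher and 0 as lower in edgeR, also 0 lower at an unadjusted p under 0.05 and in DESeq2. The members that rose spanned the thick filament (Myh6, Myh7, Mybpc3, Myl2 and Myl3), the thin filament (Actc1 and Tnni3), the Z-disc (Actn2, Ldb3 and Csrp3) and titin (Ttn). The values of hypoxia replicate 3 were the lowest of the 9 libraries for the summed list, at 8097 CPM, and without that library 14 of the 42 passed, with a median of 0.47. With trends of gene length and GC content taken out, 25 passed.

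Mybpc3, which encodes cardiac myosin-binding protein C, was at 277, 250.5 and 180.3 CPM in the 3 hypoxia libraries and at 446, 414 and 439 with rSRGN. The groups did not overlap, and replicate 3 was the lowest hypoxia library. The log2 fold change was 0.87 ± 0.11 (SE, n = 3 per group, adjusted p = 5.62e-05, edgeR), and its control libraries held 3555, 4239 and 4313 CPM. Myl3, the essential light chain of ventricular myosin, was measured at 169, 132 and 104 CPM in hypoxia and 256, 243 and 249 CPM with rSRGN. Every rSRGN library stood above every hypoxia library, with a log2 fold change of 0.89 ± 0.11 (SE, adjusted p = 5.62e-05, edgeR). The largest rise of the list was that of Xirp1, an actin-binding repeat protein of the intercalated disc, from 9.88, 8.38 and 6.02 CPM to 16.6, 21.9 and 16.6 CPM, or 2.27-fold. Myh6, the alpha-myosin heavy chain and one of the most abundant transcripts called, stood at 1679, 1454 and 904 CPM in hypoxia and 2328, 2188 and 2323 CPM with rSRGN (log2 fold change 0.76 ± 0.15, SE, adjusted p = 0.00138, edgeR). Its hypoxia libraries were spread widely, with replicate 3 well below the others, and without that library the change was 0.54, under the fold limit. The same held for Actc1, cardiac alpha-actin, at 777, 911 and 501 CPM in hypoxia and 1161, 1033 and 1134 with rSRGN, where the log2 fold change of 0.60 became 0.40 without hypoxia replicate 3.

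Not all sarcomere genes passed. Of the 42 members, 1 had a log2 fold change below 0, at -0.67, and was not called. Tnnt2, cardiac troponin T, was at 1804, 2009 and 1495 CPM in hypoxia and 2097, 2068 and 2055 with rSRGN, a log2 fold change of 0.23 (adjusted p = 0.0906, edgeR), and Acta1, skeletal alpha-actin, had a log2 fold change of 0.04 (adjusted p = 0.934, edgeR). Both were picked out after their values were seen.

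**Figure D2:**
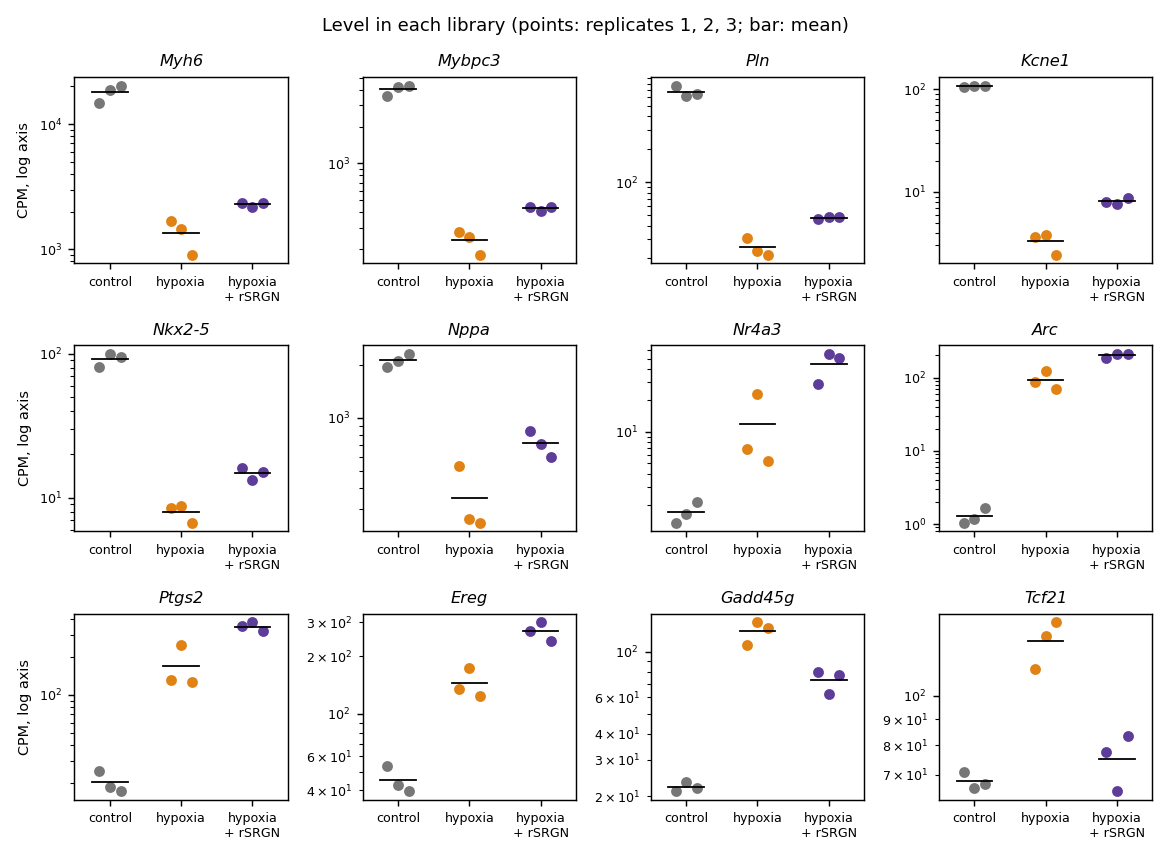
Level of 12 genes in each of the 9 libraries, in CPM on a log axis that differs between panels; points are replicates 1, 2 and 3 from left to right and bars are means. For Myh6, Mybpc3, Pln, Kcne1, Nkx2-5 and Nppa the rSRGN libraries lie between hypoxia and control, for Nr4a3, Arc, Ptgs2 and Ereg they lie above both, and for Gadd45g and Tcf21 they lie below hypoxia.

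Genes of calcium handling rose in 8 of 20 members tested and fell in none, with a median log2 fold change of 0.43. They form the cycle that releases calcium from the sarcoplasmic reticulum and returns it. Pln, phospholamban, the inhibitor of the calcium pump, stood at 30.7, 23.6 and 21.6 CPM in hypoxia and 45.7, 48.2 and 48 CPM with rSRGN. There was no overlap, and the log2 fold change was 0.90 ± 0.11 (SE, adjusted p = 4.11e-05, edgeR), against 767, 615 and 648 CPM in control. The pump itself, Atp2a2, was at 988, 935 and 612 CPM in hypoxia and 1416, 1406 and 1367 CPM with rSRGN (log2 fold change 0.73, adjusted p = 0.000375, edgeR). Of its hypoxia libraries replicate 3 was again the lowest, and without it the change was 0.54. Trdn (triadin) and Srl (sarcalumenin), 2 proteins of the same membrane system, changed by 0.76 and 0.80 and passed in all 19 settings run for single genes, each of which kept the limit of 1.5-fold. The release channel Ryr2 changed by 0.79, and by 0.56 without hypoxia replicate 3. Without that library 3 of the 20 members passed.

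Among cardiac ion channels, 12 of 23 members rose and none fell, with a median of 0.67. Potassium channel subunits made up most of them. Kcne1, the accessory subunit of the slow delayed rectifier, was at 3.6, 3.81 and 2.43 CPM in hypoxia, 7.98, 7.61 and 8.71 CPM with rSRGN and 106, 108 and 108 CPM in control. No library of one hypoxic group fell within the range of the other, and the rise was 2.46-fold (log2 fold change 1.30 ± 0.14, SE, adjusted p = 1.91e-05, edgeR). Kcnj3, an inward rectifier subunit opened by G proteins, was at 11.4, 7.05 and 5.1 CPM in hypoxia and 19.1, 15.2 and 13.1 CPM with rSRGN (log2 fold change 0.99, adjusted p = 0.00105, edgeR). Abcc9, the sulphonylurea receptor of the ATP-sensitive potassium channel in muscle, changed by 0.92. For Kcnip2 and Kcnj12, at 1.14 and 1.11, the counts were low and the calls depended on the method or on single libraries: Kcnip2 had an adjusted p of 0.0527 with DESeq2, and Kcnj12 one of 0.157 without hypoxia replicate 1 in edgeR. Without hypoxia replicate 3, 8 of the 23 passed.

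Nppa, the precursor of atrial natriuretic peptide and a gene of the fetal and stressed ventricle, was measured at 529.5, 266 and 251 CPM in hypoxia and 842, 706 and 596 CPM with rSRGN. The lowest rSRGN library was above the highest hypoxia library, although hypoxia replicate 1 was far above the other hypoxia libraries. It rose 2.05-fold (log2 fold change 1.03 ± 0.18, SE, adjusted p = 0.000673, edgeR), from a level that in control was 1946, 2100 and 2312 CPM. Corin, the protease that activates the peptide, changed by 0.83, and Myl4 and Myh7, the atrial light chain and the beta heavy chain of the fetal ventricle, by 0.76 and 0.88. These were the 4 of 11 members of the natriuretic and fetal list that rose, and none fell. Bmp10, a heart-specific ligand of the TGF-beta family, changed by 1.19, from 4.67, 2.95 and 1.91 CPM to 7.92, 7.61 and 6.5 CPM.

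Of 24 cardiac transcription factors tested, 9 rose and none fell. Nkx2-5, the homeobox factor of the cardiac lineage, stood at 8.43, 8.78 and 6.66 CPM in hypoxia and 16.1, 13.3 and 15 CPM with rSRGN (log2 fold change 0.89 ± 0.13, SE, adjusted p = 0.000122, edgeR). Its groups did not overlap, and its control libraries held 80.9, 99.8 and 95.3 CPM. Irx4, a factor of ventricular identity, changed by 1.27 and Prox1 by 0.78. Esrrb had the largest change, 2.05, but rested on 0.215, 0 and 0.232 CPM in hypoxia, and without hypoxia replicate 2 its adjusted p was 0.0582 (edgeR). By contrast the members Gata4, Gata6, Mef2c and Tbx5, core factors of the same programme, were not called. At the cell junctions, 5 of 23 members of the intercalated disc list rose and none fell, among them the desmosomal genes Dsp, at 152, 128 and 88.3 CPM and 234, 213 and 219.6 CPM (log2 fold change 0.85), and Dsc2 (0.88). At an adjusted p under 0.05 of any fold, 1 member each of the calcium handling and transcription factor lists was lower in edgeR, and 0 of the channel, natriuretic, junction and energy shuttle lists, whose counts at an unadjusted p were also 0. DESeq2 called none of these lists' members lower. The transcription factor and junction lists passed in 5 and 3 members without hypoxia replicate 3, and the junction list in 9 without hypoxia replicate 1.

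**Figure D3:**
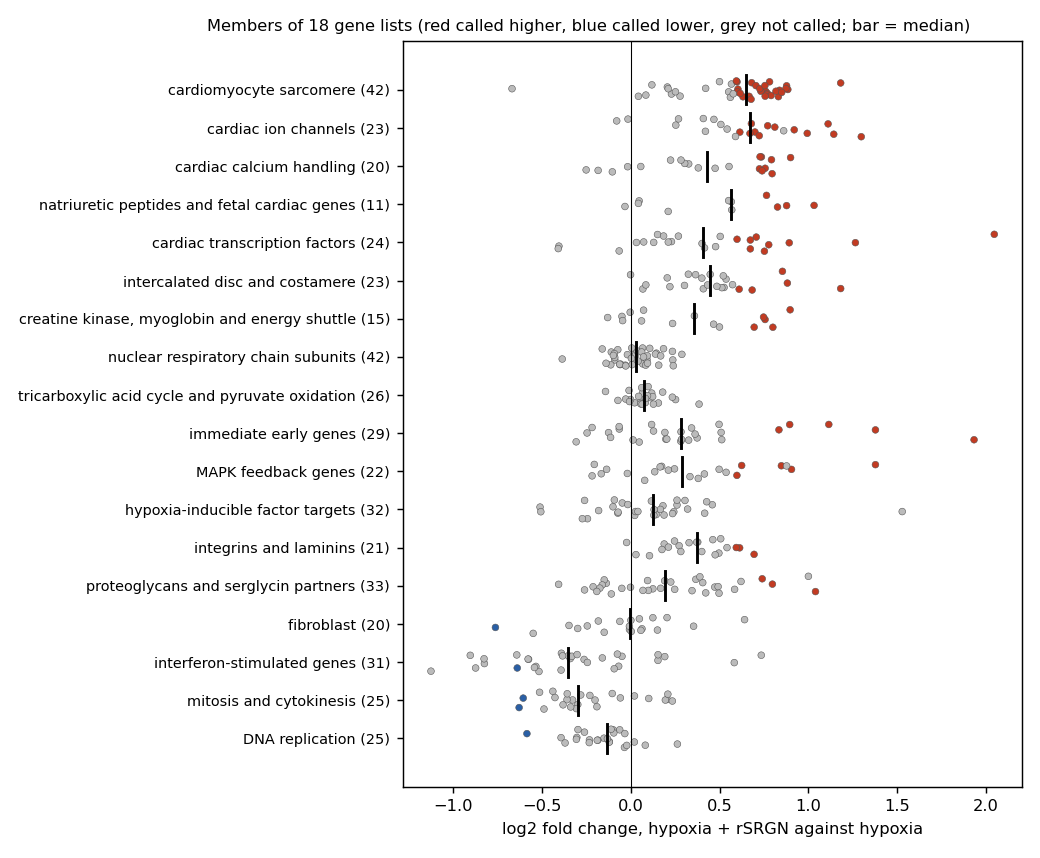
Log2 fold change of each tested member of 18 gene lists, hypoxia + rSRGN against hypoxia, with the number tested in parentheses. Red points were called higher, blue points lower, grey points were not called, and bars are medians, from 0.67 for cardiac ion channels to -0.35 for interferon-stimulated genes.

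Energy metabolism was split. Muscle-specific isoforms rose in 5 of 15 members of the creatine kinase and energy shuttle list: Ckm, muscle creatine kinase, was at 84.9, 62.4 and 51.3 CPM in hypoxia and 123, 120.1 and 127 CPM with rSRGN (log2 fold change 0.90 ± 0.12, SE, adjusted p = 5.96e-05, edgeR). The others were Mb, Ckmt2 (0.76), and the muscle isoforms Cox6a2 (0.75) and Cox8b (0.80) of cytochrome oxidase. The general respiratory chain showed no such calls, with 0 of 42 nuclear subunits and 0 of 26 genes of the tricarboxylic acid cycle called by edgeR or DESeq2 (8 and 3 at an unadjusted p under 0.05 of any fold in edgeR), and medians of 0.03 and 0.07. Here 9 and 4 members were above all hypoxia libraries, beside the 16.5% of all genes. Slc2a4, the insulin-regulated glucose transporter GLUT4, was at 9.62, 9.42 and 7.53 CPM in hypoxia and 17.5, 17.2 and 18.7 CPM with rSRGN. Its groups were widely separated relative to their spread (log2 fold change 1.00 ± 0.11, SE, adjusted p = 1.48e-05, edgeR). Slc2a4 and the muscle phosphoglycerate mutase Pgam2 (0.68, and 0.54 without hypoxia replicate 3) were the 2 of 28 glycolysis and glucose uptake genes that rose. Cd36, the fatty acid transporter, went from 9.83, 10.9 and 8.28 CPM to 18.4, 18.4 and 17.4 CPM, a log2 fold change of 0.90, and was joined by Acsl1 and Pdk4 in the fatty acid list, 3 of 29. Acsl1 and Pdk4 changed by 0.60 and 0.69, and by 0.52 and 0.57 without hypoxia replicate 3. Rragd, a GTPase of the amino acid sensing pathway, had the smallest p of all genes, at 25.8, 24.1 and 22.4 CPM in hypoxia and 47.1, 45.6 and 43.5 CPM with rSRGN (adjusted p = 4.98e-06, edgeR).

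Some immediate early genes rose too. Of 29 members tested, 5 rose and none fell in edgeR, Nr4a3, Nr4a2, Arc, Egr3 and Dusp2, whereas DESeq2 called 2 higher, Nr4a3 and Arc. DESeq2 did not call Nr4a2 or Egr3 and gave Dusp2 no adjusted p. Nr4a3, an orphan nuclear receptor, was at 6.88, 23.2 and 5.21 CPM in hypoxia and 28.6, 55.4 and 50 CPM with rSRGN, against 1.35, 1.63 and 2.13 CPM in control. Hypoxia replicate 2 stood far above the other hypoxia libraries but below the lowest rSRGN library, which was replicate 1. The rise was 3.82-fold (log2 fold change 1.94 ± 0.32, SE, adjusted p = 0.000409, edgeR). Arc, a cytoskeleton-associated protein best known from active neurons, was measured at 86.7, 122 and 69 CPM in hypoxia, 182, 210.5 and 210.3 CPM with rSRGN and 1.03, 1.17 and 1.64 CPM in control. The hypoxic groups did not overlap (log2 fold change 1.12 ± 0.13, SE, adjusted p = 3.85e-05, edgeR). Nr4a2, at 11.1, 22.3 and 8.69 CPM and 18.7, 31 and 28.3 CPM, overlapped between the groups, and its adjusted p was 0.0766 with DESeq2. Dusp2 was measured at under 3 CPM in every library, and leaving out any of 5 of the 6 libraries ended its call.

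The classical members of the same family did not pass. Egr1 was at 544, 776 and 463 CPM in hypoxia and 579.5, 581 and 680.5 CPM with rSRGN (adjusted p = 0.846, edgeR), Fos at 36.4, 44.1 and 26.3 and 41.5, 48 and 48.8 CPM (adjusted p = 0.0665), and Nr4a1 at 193, 454 and 211 and 344, 393 and 487 CPM (adjusted p = 0.0826). In each of these hypoxia replicate 2 was the highest hypoxia library and lay within or above the range of the rSRGN libraries. The 3 genes were picked out after their values were seen. The summed level of the list was 4499 CPM in hypoxia replicate 2, 3121 and 3145 in the other hypoxia libraries and 4129 to 4576 with rSRGN, so the groups overlapped. Without hypoxia replicate 2, 10 of the 29 were called, without hypoxia + rSRGN replicate 2, 3 were called, and without hypoxia replicate 1, 4 were called and the median fell from 0.28 to 0.07. The part of that library in the result was not tested further.

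Ligands and feedback inhibitors of the EGF receptor pathway were also among the genes called. Ereg (epiregulin), a ligand of the receptor, was at 134, 174 and 124 CPM in hypoxia, 269, 301 and 239.7 CPM with rSRGN and 53.7, 42.5 and 39.5 CPM in control, and rose 1.87-fold (adjusted p = 4.75e-05, edgeR). The ligand Hbegf was also called. Errfi1, an inhibitor that binds the receptor, was at 86.1, 163 and 92.8 CPM and 190.4, 209 and 216 CPM, with replicate 2 again high among the hypoxia libraries but below the lowest rSRGN value (log2 fold change 0.85 ± 0.15, SE, adjusted p = 0.00066, edgeR). With Dusp5 and Dusp2, phosphatases of MAP kinases, 5 of 22 members of the MAPK feedback list rose and none fell. At an unadjusted p under 0.05 of any fold, 0 of the MAPK feedback and 1 of the immediate early genes were lower in edgeR, and DESeq2 called 4 of the MAPK feedback genes higher and 0 lower in either list. Dusp5 changed by 0.62, and by 0.51 without hypoxia replicate 3. The number called was 2 when hypoxia replicate 1 or hypoxia replicate 3 was left out, and 3 without hypoxia + rSRGN replicate 2. Ptgs2, the inducible cyclooxygenase, stood at 130.5, 249.7 and 126 CPM in hypoxia, 349, 379 and 319.7 CPM with rSRGN and 25.1, 18.5 and 17.2 CPM in control. No rSRGN library fell within the hypoxia range, and the rise was 2.07-fold (log2 fold change 1.05 ± 0.17, SE, adjusted p = 0.00036, edgeR). Ccl20, a chemokine, was far lower in count, at 5.1, 3.99 and 3.24 CPM and 10.6, 8.48 and 7.45 CPM, and rose by 1.10 on the log2 scale. These were the 2 of 22 cytokine and chemokine genes called, and in the NF-kB list 0 of 22 were called by edgeR or DESeq2 (9 at an unadjusted p under 0.05 of any fold in edgeR). Of the gp130 and STAT3 genes 1 of 19 rose, the kinase Pim1 (0.67).

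Promoter windows are shown for 3 sarcomere genes that rose and for Nr4a3, because motifs known from muscle and from immediate early promoters were found in them. The windows are the 250 bases before the start site in RefSeq, on the GRCm38.p6 build and the gene's own strand. Capitals mark matches on either strand to the motifs searched. For the TATA box TATAAA was searched, for the M-CAT site CATTCC, and for the site of GATA factors AGATAA. For the AP-1 site it was TGANTCA, and for the CRE core, which is also part of the full CRE searched as TGACGTCA, it was TGACG. For the GC box GGGCGG was searched, and for the box named after its letters CCAAT. The CArG box, the MEF2 site and the NF-kB site were searched as well. Myl3 lies at chr9:110763428-110763677, Mybpc3 at chr2:91117894-91118143 and Nr4a3 at chr4:48045055-48045304, all on the plus strand, and Actc1 at chr2:114052876-114053125 on the minus strand.
Myl3: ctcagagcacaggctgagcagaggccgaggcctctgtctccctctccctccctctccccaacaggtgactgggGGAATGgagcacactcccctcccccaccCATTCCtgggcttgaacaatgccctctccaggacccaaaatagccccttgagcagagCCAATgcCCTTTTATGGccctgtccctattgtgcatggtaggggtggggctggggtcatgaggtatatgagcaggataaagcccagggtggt
Mybpc3: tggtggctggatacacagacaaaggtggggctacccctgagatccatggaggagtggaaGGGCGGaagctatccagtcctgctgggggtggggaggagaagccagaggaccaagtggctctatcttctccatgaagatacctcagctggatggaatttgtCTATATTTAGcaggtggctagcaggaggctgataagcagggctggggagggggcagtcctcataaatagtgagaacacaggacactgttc
Actc1: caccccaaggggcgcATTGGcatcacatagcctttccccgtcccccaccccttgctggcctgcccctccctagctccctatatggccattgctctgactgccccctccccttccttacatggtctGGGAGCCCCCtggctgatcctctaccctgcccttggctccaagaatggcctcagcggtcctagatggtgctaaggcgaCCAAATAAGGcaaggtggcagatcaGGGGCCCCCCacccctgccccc
Nr4a3: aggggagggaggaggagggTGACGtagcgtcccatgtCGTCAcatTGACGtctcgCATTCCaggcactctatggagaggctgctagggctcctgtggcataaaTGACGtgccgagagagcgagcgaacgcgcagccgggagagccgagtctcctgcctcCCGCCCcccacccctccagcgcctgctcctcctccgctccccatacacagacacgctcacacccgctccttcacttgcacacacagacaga
The Myl3 window held a CArG box, the binding motif of serum response factor, 85 to 76 bases before the start, and 2 M-CAT sites. The Mybpc3 window held a MEF2 site 90 to 81 bases before the start, and the Actc1 window a CArG box 47 to 38 bases before it. The Nr4a3 window held 4 CRE cores and no full CRE.

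Windows of 300 bases, with 250 before and 50 after the start, were found by symbol for 283 of the 381 genes called higher, 88 of the 144 called lower and 11686 of the tested genes. A MEF2 site was present for 7.07% of the genes called higher, 2.27% of those called lower and 1.7% of the tested genes. The CArG box was present for 3.53%, 0% and 1.6%, and the TATA box for 15.9%, 7.95% and 9.4%. Of 35 sarcomere genes with a window, 8 held a CArG box, 6 a MEF2 site and 13 an M-CAT site (22.9%, 17.1% and 37.1%, beside 1.6%, 1.7% and 15.1% of the tested genes). An NF-kB site was held by 10 and a GATA site by 9 (28.6% and 25.7%, beside 12.3% and 8.07%). The GC box and the CRE core were less frequent than in the tested genes (31.4% and 28.6%, beside 66.1% and 33.6%). Of 23 immediate early genes with a window, 16 held a CRE core (69.6%, beside 33.6%). An NF-kB site was held by 8, a MEF2 site by 4 and an AP-1 site by 0 of them (34.8%, 17.4% and 0%, beside 12.3%, 1.7% and 6.46%). The AP-1 site was present for 9.19% of the genes called higher and 6.46% of the tested genes, the GATA site for 9.19% and 8.07%, the NF-kB site for 12% and 12.3%, the CRE core for 29% and 33.6%, the full CRE for 3.53% and 3.37%, the CCAAT box for 38.2% and 42.5% and the GC box for 58% and 66.1%. Over all 32851 windows of the RefSeq table the MEF2 site was present in 1.86%, the CArG box in 1.63% and the CRE core in 20.8%. These shares describe letters in the windows and carry no test.

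The serglycin gene itself, Srgn, was nearly silent in these cultures. Its counts were 6, 6 and 6 fragments in hypoxia, 3, 19 and 6 with rSRGN, and 5, 14 and 10 in control, which was too low to be tested. Cd44, the receptor, was at 228, 280.1 and 232 CPM in hypoxia and 338, 356 and 334 CPM with rSRGN, against 116, 114 and 101 CPM in control. All rSRGN libraries were above all hypoxia libraries (log2 fold change 0.47 ± 0.08, SE, adjusted p = 0.000549, edgeR), and the change of 1.39-fold stayed under the fold limit. In the list of proteoglycans and serglycin partners, which holds only some of the enzymes that make them, 3 of 33 members rose and none fell, with 16 higher and 4 lower at an unadjusted p under 0.05 in edgeR and 4 called higher and 0 lower by DESeq2. Without hypoxia replicate 2 the number that rose was 6, and without hypoxia + rSRGN replicate 3 it was 5. Acan and Vcan, the large hyaluronan-binding proteoglycans aggrecan and versican, were at 10.1, 15 and 7.88 CPM and 99, 99.7 and 82.3 CPM in hypoxia and at 22.9, 25 and 19.8 CPM and 153, 175 and 142 CPM with rSRGN (log2 fold changes 1.04 and 0.74, the latter 0.53 and not called with length and GC trends taken out). The third was Has1, a hyaluronan synthase, at 6.07, 8.55 and 6.2 CPM and 11.7, 12.4 and 12 CPM (0.80). Chst12, a sulphotransferase that acts on chondroitin chains and is not in that list, was at 14.4, 17.3 and 19.9 CPM in hypoxia and 8.52, 7.03 and 9.4 CPM with rSRGN. Its groups were well apart, and it fell by 1.05 on the log2 scale (SE 0.14, adjusted p = 5.96e-05, edgeR).

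Other extracellular matrix genes rose singly. Thbs1, thrombospondin 1, was the gene called with the highest CPM, at 2119, 2741 and 1900 CPM in hypoxia and 3963, 4401 and 3845 CPM with rSRGN (log2 fold change 0.85 ± 0.10, SE, adjusted p = 3.85e-05, edgeR). It and Thbs4 were the 2 of 23 matricellular genes called, which were 5 without hypoxia replicate 2 and 1 without hypoxia replicate 3. The change of Thbs4, 0.72, was 0.45 without hypoxia replicate 3. Col12a1, a collagen that associates with fibrils, was at 169.8, 158 and 140.5 CPM and 287, 305 and 245 CPM, and with Col6a3 made up the 2 of 30 collagen genes called (0.84 and 0.66, the latter 0.58 without hypoxia replicate 2). Lama2, Itga8 and Itgav, a laminin chain and integrin chains that bind matrix, were the 3 of 21 integrins and laminins called, at 0.69, 0.61 and 0.59, with the last pair at 0.57 and 0.53 without hypoxia replicate 3. Without the fold limit 14 passed as higher, beside 10.5% of all genes. A log2 fold change above 0 was seen in 20 of the 21, beside 46.2% of all genes (median of the list 0.37). This list had a median summed exon length of 8092 bases, and with length and GC trends taken out 0 of its members were called in edgeR and the median was 0.24. Of the matrix metalloproteinases and their inhibitors 0 of 20 were called by edgeR or DESeq2 (9 at an unadjusted p under 0.05 of any fold in edgeR), and 2 rose without hypoxia replicate 2. In the TGF-beta list 3 of 28 rose, Bmp10, Inhba (0.64) and Skil (0.61), and Id1 fell; the calls of Inhba, Skil and Id1 were lost without hypoxia replicate 3 (0.52, 0.50 and -0.42). This list had 6 members higher and 2 lower without hypoxia replicate 2, 5 and 2 without hypoxia + rSRGN replicate 3, and 2 lower without hypoxia + rSRGN replicate 1.

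Genes that fell were fewer. Tcf21, a transcription factor of cardiac fibroblasts and their epicardial precursors, was at 113, 131 and 139.6 CPM in hypoxia, 77.8, 65 and 83.4 CPM with rSRGN and 70.8, 65.9 and 67.3 CPM in control. The groups did not overlap, and it fell by 0.76 on the log2 scale (SE 0.09, adjusted p = 3.85e-05, edgeR). It was the 1 of 20 fibroblast genes called, and the median of that list was 0.00, with 10 members above 0 and 10 below. Gadd45g, a stress-induced gene that slows the cell cycle, was at 108, 139 and 129.6 CPM in hypoxia and 79.4, 62.1 and 77.1 CPM with rSRGN, against 21.2, 23.4 and 22 CPM in control. It fell by 0.78 on the log2 scale with no overlap (SE 0.10, adjusted p = 4.65e-05, edgeR). G0s2, an inhibitor of triglyceride lipase, was at 19, 15.3 and 17.3 CPM and 9.29, 9.49 and 10.9 CPM, and it fell by 0.80 on the log2 scale. Gja4, a connexin of vessels, had the largest fall among the named genes whose call held in those 19 settings, from 3.33, 4.91 and 6.14 CPM to 1.55, 1.59 and 1 CPM, 3.45-fold. Ptpn6 and Zbtb8b, at 2.42, 2.2 and 2.08 CPM and 3.33, 2.25 and 2.78 CPM in hypoxia, were at 0.417, 1.16 and 0.792 CPM and 1.07, 1.16 and 1.06 CPM with rSRGN, close to the limit of detection. The other 7 of the 12 largest falls, Spin2c, 2810408A11Rik, Efna3, Ccdc17, 4933434E20Rik, Tm6sf2 and Med18, changed by -1.30 to -0.99 from means of 1.57 to 3.85 CPM in hypoxia. Each lost its call without at least 1 of the libraries. Over all settings the call was lost in 9 for Efna3, 8 for 2810408A11Rik, 6 for Spin2c and 4 for Tm6sf2. For 4933434E20Rik and Med18 it was lost in 2 each, and for Ccdc17 in 1.

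Of 25 mitotic genes 2 fell and none rose in edgeR, DESeq2 called 1 lower, the median log2 fold change was -0.30, and 16 had all rSRGN libraries below all hypoxia libraries, beside 15.5% of all genes. Without the fold limit 14 of the 25 passed as lower, beside 6.11% of all genes, and 0 as higher in edgeR, although 4 were higher at an unadjusted p under 0.05. Cdc20, the activator of the anaphase-promoting complex, was at 58.2, 59.2 and 53.7 CPM in hypoxia, 31.5, 37.9 and 41 CPM with rSRGN and 32.5, 29.7 and 32.1 CPM in control (log2 fold change -0.63 ± 0.10, SE, adjusted p = 0.000215, edgeR). Its groups did not overlap, and the change was -0.53 without hypoxia + rSRGN replicate 1. Aurka, a mitotic kinase, was at 23.1, 30.1 and 25.4 CPM and 17.7, 15.7 and 18.2 CPM, and its change of -0.61 was -0.50 without hypoxia replicate 2. With length and GC trends taken out neither passed the fold limit. In the DNA replication list 1 of 25 fell, Rfc3, whose change of -0.59 lay at the fold limit and was -0.35 without hypoxia replicate 2. The ribosome biogenesis list had 0 of 24 called by edgeR or DESeq2 (11 at an unadjusted p under 0.05 of any fold in edgeR) and a median of -0.15; Npm1, nucleophosmin, was at 870.3, 940.5 and 869 CPM and 719.5, 717 and 730.1 CPM (log2 fold change -0.31, adjusted p = 0.00434, edgeR), under the limit of 1.5-fold.

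The median log2 fold change over interferon-stimulated genes was -0.35, with 26 of 31 members below 0 and 1 called lower. The other 5 were above 0, as were 46.2% of all genes tested. That gene was Ifit3, at 9.94, 9.88 and 10.7 CPM in hypoxia and 7.75, 6.65 and 5.23 CPM with rSRGN (log2 fold change -0.64 ± 0.16, SE, adjusted p = 0.00958, edgeR). Its groups did not overlap, and its adjusted p was 0.0615 without hypoxia + rSRGN replicate 3. With length and GC trends taken out its change was -0.55, under the fold limit, and 0 of the 31 were called in edgeR. The summed level of the list was 287 to 338 CPM in hypoxia, 242 to 267 with rSRGN and 195 to 201 in control. Hypoxia replicate 2 was the lowest of its group, and without it 6 members were called lower and the median was -0.53, while leaving out any other library of the 6 gave 1 or 2 called lower. Among the genes named Zfp, most of which encode zinc finger proteins, 9 of 356 tested were lower, beside 0.859% of all genes, and 1 was higher, with a median of -0.10.

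Some calls among the lower genes rested on a single library. The mitochondrially encoded mt-Atp8 was at 1.02, 21.7 and 1.1 CPM in hypoxia and 1.25, 1.2 and 1 CPM with rSRGN, so hypoxia replicate 2 alone stood high and the groups overlapped. Without that library its log2 fold change went from -2.77 to 0.12. The transcript mt-Co2 (82.7, 172 and 66.8 CPM in hypoxia, 62.4, 60.7 and 53.1 CPM with rSRGN) and the predicted genes Gm28661 and Gm10800 were high in the same library, and without it changed by -0.35, -0.37 and -0.34. Gm28661 is annotated as a pseudogene, whose count is uncertain where reads match another copy. Of the 13 mitochondrially encoded mRNAs 2 were called lower, mt-Atp8 and mt-Co2, and 0 by DESeq2, which gave mt-Atp8 no adjusted p. Without hypoxia replicate 3 the number was 4, and without hypoxia replicate 2, hypoxia + rSRGN replicate 1 or hypoxia + rSRGN replicate 3 it was 1.

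**Figure D4:**
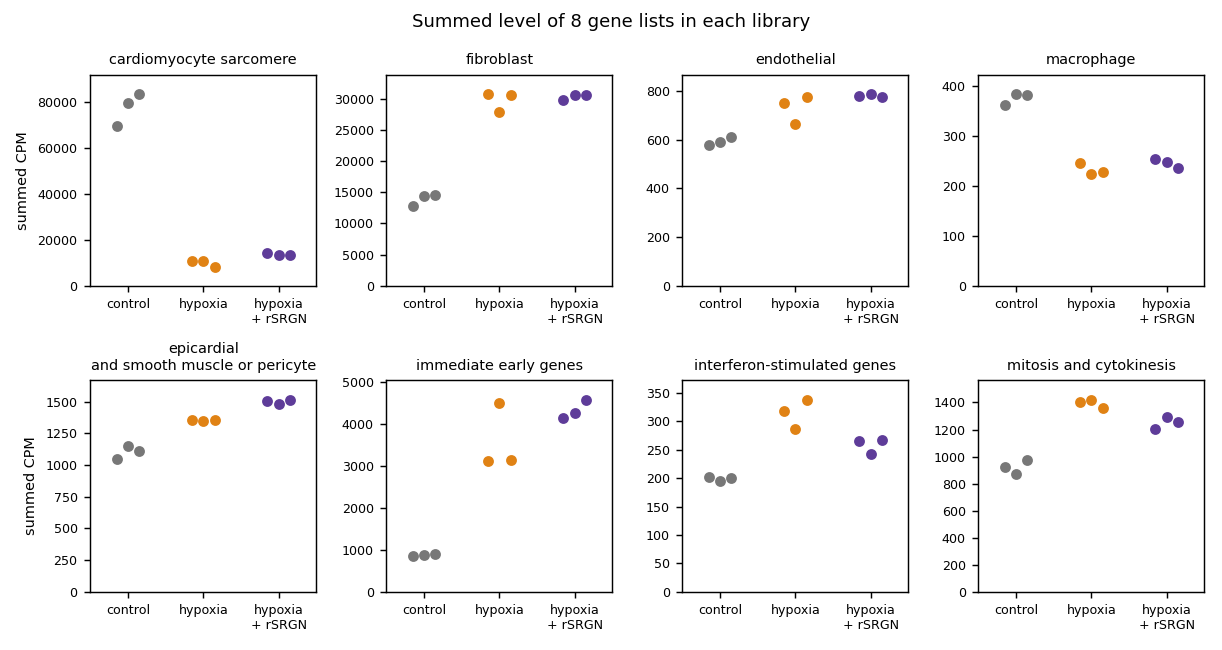
Summed level in CPM of 8 gene lists in each of the 9 libraries, with each vertical axis starting at 0; points are replicates 1, 2 and 3 from left to right. The sarcomere sum is 8097 to 10960 in hypoxia and 13430 to 14250 with rSRGN, the immediate early sums overlap, and the interferon and mitosis sums with rSRGN lie below all hypoxia libraries.

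Several stress programmes showed few calls or none. By edgeR and by DESeq2, no member was called among 32 targets of hypoxia-inducible factor (median 0.12), 22 genes of the unfolded protein response, 22 NRF2 targets, 19 peroxide and superoxide clearing enzymes, 26 genes of cholesterol and 15 of fatty acid synthesis, 23 apoptosis regulators and 22 genes of autophagy. Nor was any called among 18 Hippo and YAP targets, 21 SRF and smooth muscle genes, 14 Notch and 22 Wnt genes. Leaving out 1 library gave at most 1 call in either direction in each of these lists. At an unadjusted p under 0.05 of any fold, the 12 lists had in this order 13, 12, 6, 7, 11, 7, 12, 6, 13, 9, 5 and 5 members in edgeR. Hippo and YAP targets were the list of these with the most members higher at an adjusted p under 0.05 of any fold, 10 of 18, beside 10.5% of all genes. The sums of the hypoxia-inducible factor list did not overlap, at 2879 to 3153 CPM in hypoxia and 3329 to 3450 with rSRGN. At an adjusted p under 0.05 of any fold, 5 of its members were higher and 2 lower in edgeR. Lox, its most abundant member, was at 821, 899 and 822 CPM in hypoxia and 1166, 1191 and 1062 CPM with rSRGN. The groups of Lox did not overlap (log2 fold change 0.43, adjusted p = 0.000714, edgeR). P4ha1, a collagen hydroxylase induced in hypoxia, stood at 370.2, 437 and 367 CPM in hypoxia, 365, 370 and 380.5 CPM with rSRGN and 134, 136 and 171 CPM in control (log2 fold change -0.07, adjusted p = 0.631, edgeR). Hspa5, the chaperone of the endoplasmic reticulum, was at 985, 1175 and 992 CPM and 1055, 1122 and 1150 CPM (adjusted p = 0.552, edgeR). For P4ha1 and Hspa5 the groups overlapped. Of the ATF4 targets 1 of 36 rose, Slc7a1 (0.60, and 0.48 without hypoxia replicate 3), and of the heat shock chaperones 1 of 24, the muscle chaperone Hspb7 (0.63, and 0.57 without hypoxia replicate 3). The atrophy list gave 2 of 17, Trim55 (0.76) and Trim54, both proteins of muscle. Trim54 changed by 0.66, and its call was lost when any of 7 of the 9 libraries was left out, with an adjusted p of up to 0.195 in edgeR without hypoxia replicate 3. The clock list gave 1 of 19, Hlf (0.87, with an adjusted p of 0.0534 in edgeR without hypoxia replicate 3). The p53 list gave Perp, a desmosomal gene, higher (0.88) and Gadd45g lower, out of 23.

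Markers of other cell types were also read. The endothelial list had 2 of 20 called, Cd36, which myocytes express too, and Kdr, a VEGF receptor (0.93), and its summed level was 665 to 775 CPM in hypoxia and 775 to 788 with rSRGN. In the macrophage list 1 of 16 was called, Tyrobp, at 0.806, 0.116 and 0.116 CPM and 1.97, 0.867 and 0.687 CPM, whose groups overlapped and whose call was lost when any of 7 of the 9 libraries was left out, with an adjusted p of up to 0.258 in edgeR without hypoxia + rSRGN replicate 1, and the summed level was 224 to 245 CPM in hypoxia and 235 to 253 with rSRGN. The complement genes C1qa, a defining macrophage marker, and C1qb were near 0 in all 6 libraries, at most 0.0964 and 0.37 CPM. Of the 16 macrophage genes tested, 13 had a log2 fold change above 0, beside 46.2% of all genes. Levels of the defining markers Csf1r and Adgre1 are not given here. The epicardial, smooth muscle and pericyte list summed to 1347 to 1357 CPM in hypoxia and 1482 to 1516 with rSRGN, with Rgs5 (0.78) and Abcc9 called of 14. The adjusted p of Rgs5 was 0.0661 in edgeR without hypoxia replicate 3. Of 3 neutrophil and mast cell genes and 5 Schwann and neuron genes tested none was called by edgeR or DESeq2 (0 and 2 at an unadjusted p under 0.05), and no erythroid gene was expressed well enough to be tested. The Schwann and neuron list had a median log2 fold change of -0.43. Its summed level was 86.7 to 102.6 CPM in hypoxia and 66.4 to 83.5 with rSRGN, without overlap. The neutrophil and mast cell list summed to 8.86 to 10 CPM and 9.19 to 13 CPM, which overlapped. The part of these cells in the results above was not tested.

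Genes called higher differed from those called lower in length. The summed exon length had a median of 5530 bases for the genes called higher, 2300 for those called lower and 3960 for all genes tested. When the genes were divided by length into 4 bins of equal number, in the bin of the shortest genes, up to 2294 bases, 1.36% were called higher and 1.69% lower, and in the longest, above 6351 bases, 3.77% and 0.215%. The median log2 fold change went from -0.15 in the shortest bin through -0.10 and -0.01 to 0.13 in the longest. GC content had medians of 48.3% for higher, 50% for lower and 49.6% for all genes. With both trends taken out of the counts, 389 genes were called, 295 higher and 94 lower, of which 327 were among the 525. Of 104 called genes chosen for naming, 20 lost their call in that fit, among them Vcan (0.53), Ryr2 (0.58), Lama2 (0.48), Inhba (0.54), Skil (0.45), Id1 (-0.50), Cltc (0.47), Col6a3 (0.52), Acsl1 (0.42), Slc7a1 (0.45) and Ifit3 (-0.55). Protein-coding genes made up 351 of the 381 called higher (92.1%) and 105 of the 144 called lower (72.9%), beside 82.9% of all genes tested, and of the 718 processed pseudogenes tested (4.28% of all genes) 3 were called higher and 14 lower (0.418% and 1.95%). The part of RNA quality in the length trend was not tested.

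**Figure D5:**
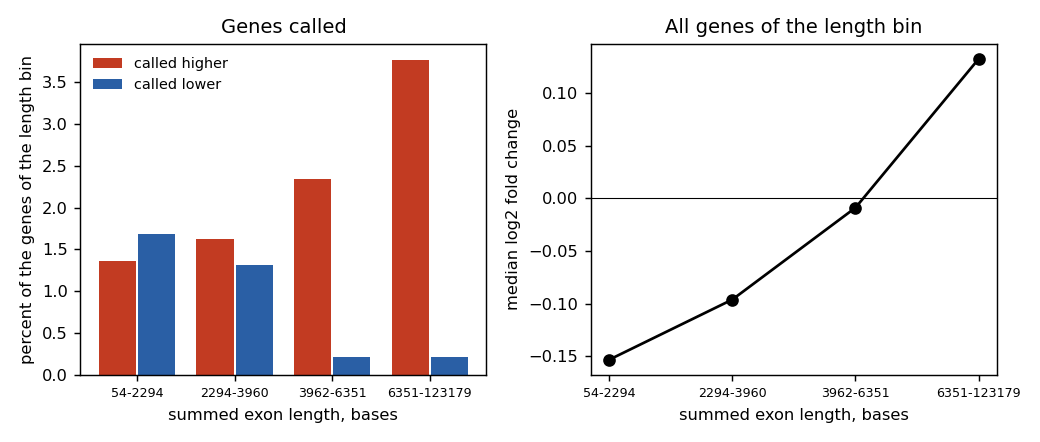
Left, percent of the genes of each of 4 bins of summed exon length that were called higher (red) or lower (blue) in hypoxia + rSRGN against hypoxia. Right, the median log2 fold change of all genes of each bin, which goes from -0.15 in the shortest to 0.13 in the longest; exon length in bases is given under each bin.

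Among the remaining genes with the largest rises, Nmrk2, a nicotinamide riboside kinase of muscle, was at 1.24, 1.56 and 0.927 CPM in hypoxia and 4.23, 3.23 and 3.54 CPM with rSRGN, 2.93-fold, and Fbxo40, a ubiquitin ligase component of muscle, was at 7.25, 5.43 and 3.59 CPM and 13.3, 13.3 and 13.1 CPM, 2.42-fold. Both had groups without overlap. Paqr9, Cacna2d2, Fitm1 and Epn3 changed by 1.66, 1.40, 1.30 and 1.26 from levels at or below 2 CPM in hypoxia. Acvr1c and Serpinb2, at 1.97 and 1.72, were below 3 CPM in hypoxia and lost their calls without hypoxia replicate 3, with adjusted p of 0.068 and 0.0786 in edgeR. Among genes with the smallest p, Gfod1 was at 25.4, 28.3 and 25.1 CPM in control, 22.4, 20.2 and 17.9 CPM in hypoxia and 45.1, 42.7 and 36.5 CPM with rSRGN (log2 fold change 1.04 ± 0.11, SE, adjusted p = 1.48e-05, edgeR). Slc30a4, a zinc transporter, was at 41.5, 38.7 and 38.3 CPM, 38.2, 40.3 and 37.4 CPM and 71.5, 71.1 and 60.4 CPM in the same order (log2 fold change 0.81, adjusted p = 1.48e-05), so hypoxia and control overlapped and the rSRGN libraries were above both. Cltc, the clathrin heavy chain, was at 363, 377 and 309 CPM in hypoxia and 552, 559.8 and 499.7 CPM with rSRGN, and its change of 0.62 was 0.54 without hypoxia replicate 3.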

How the data were processed

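Poly(A)-enriched RNA of mouse cultures was sequenced as 9 libraries on an Illumina instrument. The authors deposited raw counts, whole numbers of fragments for each gene, made per the file header with featureCounts 2.0.1 in paired-end mode, without a strand option, on GENCODE release 25. HISAT2 and mm10 are named in the submitters' processing notes. All 9 count columns were used and grouped by their labels. Overlapping genes and near-identical copies are uncertain.

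In R 4.3.3, edgeR 4.0.16 fitted the 9 libraries together (filterByExpr, TMM), and hypoxia + rSRGN was contrasted with hypoxia. A call needed at least 1.5-fold and an adjusted p (Benjamini-Hochberg) under 0.05. Fold changes are log2. The step was tested on simulated data. The 51 gene lists, the genes and the comparison were chosen with earlier results of these data known. Genes were named as the 12 largest rises and falls among called protein-coding genes without overlap and of at least 1 CPM, the 6 most abundant and 6 smallest p in each direction, Srgn, Cd44, and up to 4 called members of each list by size of change (or the 2 most abundant where none was called). Not every gene under this rule is reported here. Others carry a note or are named without a test of their own. Promoter windows came from RefSeq. Alternatives were DESeq2 1.42.0, other scalings, filters and limits, a replicate block, thinning, and libraries left out. The same replicate numbers in the 2 groups did not vary together (correlation of deviations 0.00, -0.02 and 0.02).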

Additional observations from a re-analysis of the deposited data

How the results depend on the processing

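Against 525 genes called (381 higher, 144 lower), DESeq2 called 504 (428 and 76), RLE scaling 548 (442 and 106) and the 6 libraries alone 437 (348 and 89). With trends of length and GC taken out 389 were called (295 and 94), with no adjustment of p 899 (544 and 355), with no fold limit 2790 (1766 and 1024) and at 2-fold 108 (69 and 39). Leaving out 1 library gave 321 to 699 genes, 201 to 500 higher and 70 to 203 lower, the lowest total without hypoxia replicate 3 and the fewest lower without hypoxia + rSRGN replicate 2. The replicate block gave 495 (381 and 114). The labels do not say whether equal replicate numbers share a culture or day. The correlations near 0 come from 3 libraries a group and cannot decide it. Filters, thinning, library size alone and the fit without mitochondrial genes gave 489 to 594. No scaling moved the median of all genes by over 0.1.

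Of 104 named genes called, 55 kept their call in all 19 settings run for single genes, and Paqr9 and Ptpn6 in those that tested them. DESeq2 gave 8 of the 104 no adjusted p. In 152 cases a call was lost, and for mt-Atp8 without hypoxia replicate 2 the direction reversed, with a range of -3.3 to 0.12 over the libraries left out. Of 949 list medians, 907 moved by less than the spread between replicates. Leaving out hypoxia replicate 3 took the sarcomere calls from 27 to 14, and leaving out hypoxia replicate 2 took the immediate early calls from 5 to 10 and the interferon calls from 1 to 6. The causes were not tested. At these depths genes under 1 CPM, Srgn among them, could not be measured precisely.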
